A study of Mus musculus with 40 samples.

Results

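Of 20 mouse fat libraries labelled subcutaneous, 7 held at least 200 TPM (a transcript level scaled for gene length and to the same total in each library) of 10 epididymis genes added together, and 13 held less. The libraries were chosen by this sum over Adam7, Crisp1, Lcn5, Lcn8, Lcn9, Cst11, Gpx5, Rnase9, Rnase10 and Ovch2, and are called epididymis-rich and epididymis-poor, or rich and poor. The 10 genes took no part in any test, and their values are a description. The series holds 40 RNA-seq libraries of adipose tissue from C57BL/6J mice, 5 in each of 8 groups made by 2 depot labels and 4 treatments. The treatments are normal, normal with drug, high-fat diet (HFD) and high-fat diet with drug, and the series description gives the drug as beta-carotene. Dose, duration and age are not given in the sources used here. No label ties a library to an animal, so p-values measure only the spread between these libraries. Libraries are named by their treatment and the number in their title.

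The depot labels went against the depot markers. Upk3b, a gene of the mesothelium that lines visceral fat, was at 6.94 to 219 TPM in the 20 libraries labelled subcutaneous and at 0 to 0.646 TPM in the 20 labelled visceral. Wt1, another mesothelial gene, reached 1 TPM in 19 of the former and 0 of the latter. The titles of the libraries labelled subcutaneous end in e or ewat, and the rich set held 4 of the former and 3 of the latter. The fat cell hormone Adipoq was at 500.2 TPM or more in all 20. Mitochondrially encoded genes took 24.3% to 30.5% of the rich and 23.6% to 31.2% of the poor libraries. Read depth is unknown, since TPM values do not keep it.

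The epididymis is the coiled duct in which sperm leaving the testis mature, and in male mice a large gonadal fat pad is attached to it. Its epithelium secretes, segment by segment, protease inhibitors, beta-defensins, lipocalins and ribonuclease A family proteins, many of which coat sperm. Principal cells make most of these proteins, clear and narrow cells acidify the lumen, basal cells lie beneath them, and smooth muscle surrounds the duct. Ciliated efferent ducts join it to the testis, and it continues as the vas deferens.

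The sum of the 10 genes was 1.97 to 136 TPM in the poor libraries (median 7.72) and 335 to 73787 TPM in the rich ones (median 4612). The libraries nearest the threshold were normal with drug library 8 just outside it, at 136 TPM, and normal libraries 98 and 99 just inside it, at 335 and 348 TPM. The other rich libraries were normal with drug libraries 5, 11 and 9, at 847, 4612 and 73787 TPM, and HFD with drug libraries 26 and 27, at 5266 and 12608 TPM. None of the 5 HFD libraries was rich, against 2 of 5 normal, 3 of 5 normal with drug and 2 of 5 HFD with drug libraries. Rich and poor libraries were therefore compared within the other 3 treatments, and the HFD libraries added only to the estimate of the spread.

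**Figure D1:**
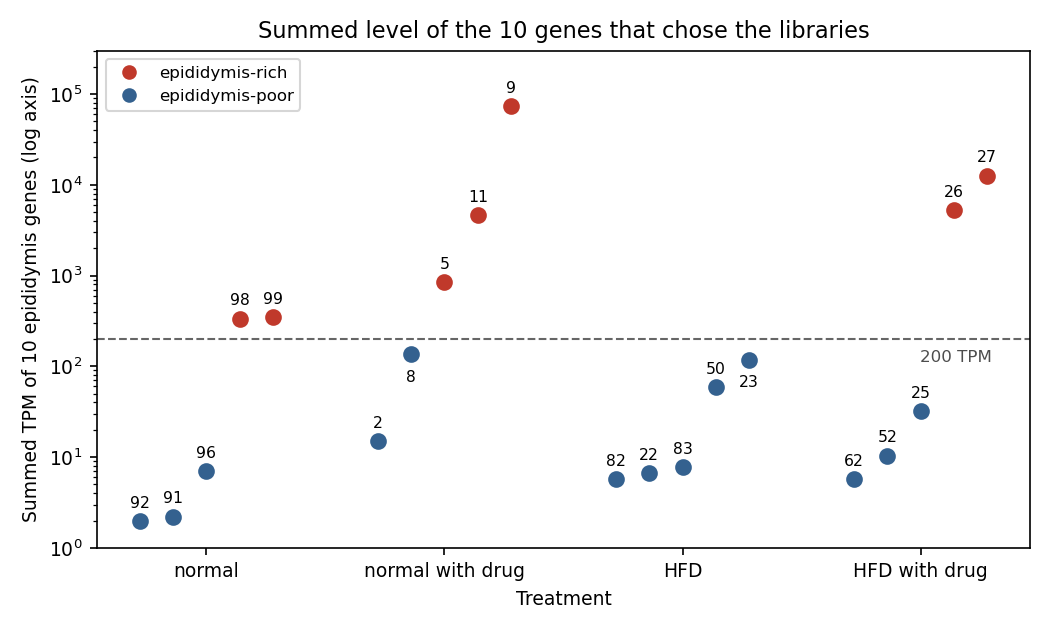
Summed TPM of the 10 epididymis genes (log axis) in the 20 libraries labelled subcutaneous, by treatment, poor in blue and rich in red, with a dashed line at 200 TPM. The sums run from 1.97 to 73787 TPM, and no HFD library lies above the line.

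The 10 genes did not come in a fixed proportion. In normal libraries 98 and 99, Crisp1, a secreted protein that binds sperm, made up 99.6% and 99.5% of the sum, and the other 9 genes were each at or below 1.01 TPM. The name epididymis-rich is thus not borne out by the other 9 genes in these 2 libraries. In normal with drug libraries 5 and 11 and HFD with drug library 26, Crisp1 made up 66.96% to 74.6% and the ribonuclease Rnase9 18.7% to 23.6% of the sum, and Gpx5, a secreted glutathione peroxidase, was at most 5.603 TPM. HFD with drug library 27 held the lipocalin Lcn5 at 3513 TPM and Gpx5 at 417 TPM beside Crisp1 and Rnase9. Normal with drug library 9 was led by Gpx5, at 32409.6 TPM and 43.9% of the sum, with Crisp1 at 1.67%. The sum thus ran over unlike mixtures of epididymal transcripts.

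**Figure D2:**
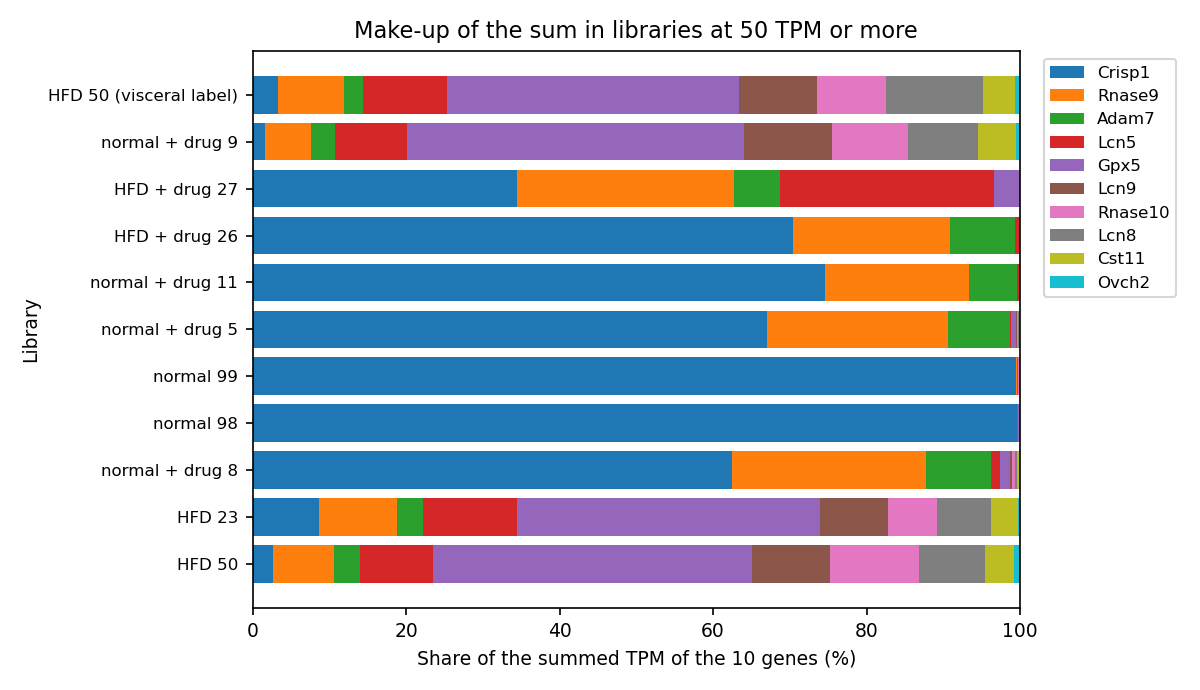
Share (%) of each of the 10 genes in their summed TPM, one bar for each library labelled subcutaneous or visceral whose sum was 50 TPM or more. Crisp1 fills almost the whole bar in normal libraries 98 and 99, and Gpx5 makes up 38.1% to 43.9% in HFD libraries 23 and 50, normal with drug library 9 and the HFD library 50 labelled visceral.

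Promoters are printed for 3 genes whose patterns the results turn on: Serpina1f, high in all 7 rich libraries, Akr1b7, high in 4, and Defb22, high in 5. They are the 250 bases before the annotated start, 5′ to 3′ on the strand of the gene, from RefSeq on build GRCm38.p6, which is not the build of the submitters' notes (GRCm39), and 3 of 8 leading genes looked up were in that table. Serpina1f lies on the minus strand (chr12:103695530-103695779), Akr1b7 on the plus strand (chr6:34412112-34412361) and Defb22 on the minus strand (chr2:152490139-152490388). Capitals mark the androgen receptor half-site TGTTCT, on either strand as TGTTCT or AGAACA.
Serpina1f: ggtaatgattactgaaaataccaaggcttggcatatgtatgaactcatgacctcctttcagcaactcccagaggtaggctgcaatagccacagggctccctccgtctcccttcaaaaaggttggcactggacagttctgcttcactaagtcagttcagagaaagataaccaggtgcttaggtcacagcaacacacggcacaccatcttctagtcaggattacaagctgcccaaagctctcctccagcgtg
Akr1b7: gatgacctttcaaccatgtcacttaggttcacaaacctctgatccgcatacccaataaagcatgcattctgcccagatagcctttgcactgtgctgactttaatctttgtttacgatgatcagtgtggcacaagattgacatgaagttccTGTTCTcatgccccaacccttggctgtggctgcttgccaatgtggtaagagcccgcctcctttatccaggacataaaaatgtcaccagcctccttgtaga
Defb22: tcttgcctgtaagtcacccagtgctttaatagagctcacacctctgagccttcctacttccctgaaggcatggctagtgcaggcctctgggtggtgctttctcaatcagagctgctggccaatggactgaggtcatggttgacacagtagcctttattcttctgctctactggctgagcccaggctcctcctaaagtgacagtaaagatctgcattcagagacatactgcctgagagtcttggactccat
The window of Akr1b7 held 1 half-site and the other 2 held none. Of the genes higher in the rich libraries, 359 had a promoter in the table and 17.5% of these held the half-site, against 18.2% of all 27025 genes with a promoter and 16.1% of all 32851 promoter windows. A match is a description of letters and says nothing of the factor.

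Beyond the 10 genes, limma was fitted to log2(TPM + 1) of 17641 genes at 1 TPM or more in at least 5 of the 20 libraries, with treatment as a block. At a Benjamini-Hochberg adjusted p under 0.05, 524 genes (2.97%) were higher in the rich libraries and 45 (0.255%) were lower, and the median log2 difference over all genes tested was 0.01. Epididymis genes follow a sum of epididymis genes in the same libraries, so their p-values are no independent support for the split. A gene near 0 in fat could also pass the filter through the rich libraries alone, so counts over the tested members of a list describe it and support nothing. The count of higher genes was 53 without HFD with drug library 26, 77 without HFD with drug library 27, 105 without normal with drug library 2, 175 without normal with drug library 8, 191 without normal with drug library 11, 259 without HFD with drug library 62, 279 without normal with drug library 9, 294 without HFD with drug library 52, 332 without HFD with drug library 25 and 926 without normal library 98. The count of lower genes ran from 0 without HFD with drug library 26 to 103 without normal with drug library 5 or normal library 98, and moved by over 1.5 times for every library except HFD with drug library 25 and normal library 99. Without normal libraries 98 and 99, left out after seeing the data, 1953 genes (11.2%) were higher and 366 (2.1%) lower. Without the 5 HFD libraries, also a choice made afterwards, 43 (0.257%) were higher and 2 (0.0119%) lower. Without the 2 highest sums, normal with drug library 9 and HFD with drug library 27, 47 (0.275%) were higher and 1 (0.00586%) lower. With every library set to the same median, 526 were higher and 123 lower, and the median of all genes was -0.10; with quantile normalization, 623 were higher and 133 lower.

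Protease inhibitors secreted by the epididymis were higher in the rich libraries: 12 of 19 tested genes rose (all genes 2.97%) and none fell (all genes 0.255%), with a median log2 difference of 3.81. Serpina1f, a serine protease inhibitor, was at 267 and 268 TPM in normal libraries 98 and 99, at 95.3, 1225 and 1040.2 TPM in normal with drug libraries 5, 11 and 9, and at 950.4 and 1233 TPM in HFD with drug libraries 26 and 27. In the 13 poor libraries it was at 0.128 to 14.4 TPM (median 0.539), so the sets did not overlap. Its log2 difference was 7.80 ± 0.61 (SE, n = 7 and 13, limma adjusted p = 5.61e-06). Spink8, a Kazal-type inhibitor, was at 73.7 to 1776 TPM in the rich libraries (median 859) and 0 to 27.5 TPM in the poor ones (median 0.5396), again with no overlap. It rose by 7.35 ± 0.65 on the log2 scale (limma adjusted p = 1.49e-05). Serpina1f and Spink8 were the 2 genes still called with the threshold at 100 TPM, which counts normal with drug library 8 and HFD library 23 as rich.

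Other inhibitors set normal libraries 98 and 99 apart from the remaining rich libraries. Wfdc13, of the whey acidic protein family, was at 0.385 and 1.17 TPM in these 2, at 557 to 5156 TPM in the other 5, and at up to 100.002 TPM in the poor libraries (median 1.31). It rose by 5.94 ± 1.18 on the log2 scale (limma adjusted p = 0.0144). Wfdc10, of the same family, was at 4.96 to 2905 TPM in the rich libraries (median 1506) and 0 to 44.8 TPM in the poor ones (median 1.61) and rose by 5.97 ± 1.08 (limma adjusted p = 0.00979). Serpina16, a serpin, was at 1.93 to 1622 TPM in the rich libraries (median 489) and 0.0654 to 33.1 TPM in the poor ones (median 0.489) and rose by 5.70 ± 0.98 (limma adjusted p = 0.00819). All 3 were above every poor library in the same 5 rich libraries. The call of Wfdc13 ended without library 26 or 27 (HFD with drug) or 2 (normal with drug) (adjusted p up to 0.0677), and that of Wfdc10 without library 26 (HFD with drug) (adjusted p = 0.0502).

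Beta-defensins, small cationic peptides that act on microbes and bind sperm, were higher too. Of 43 listed, 22 passed the filter on low values, 14 of these rose (all genes 2.97%) and none fell (all genes 0.255%), and the median log2 difference was 3.60. Defb42 was at 8.81 to 558 TPM in the rich libraries (median 109) and 0.07900 to 3.31 TPM in the poor ones (median 0.177), with no overlap, and rose by 5.37 ± 0.64 (limma adjusted p = 0.000276). Defb22 was at 0 and 0.338 TPM in normal libraries 98 and 99, at 256 to 1909 TPM in the other 5 rich libraries and at 0 to 40.9 TPM in the poor ones. Defb28 was at 2.04 and 0.949 TPM in the same 2 libraries, at 191 to 1579 TPM in the other 5 and at 0 to 23.8 TPM in the poor ones. Both thus overlapped the poor libraries only through normal libraries 98 and 99. Defb22 rose by 5.43 ± 1.13 and Defb28 by 5.54 ± 0.98 (limma adjusted p = 0.0161 and 0.00916), and the call of Defb22 ended without library 26 or 27 (HFD with drug) or 2 (normal with drug) (adjusted p up to 0.0763). The counts moved with the libraries left out, as did those of all genes. Beta-defensins that rose numbered 16 of 21 without normal libraries 98 and 99 (all genes 11.2%), 3 of 20 without the 5 HFD libraries (all genes 0.257%) and 2 of 12 without the 2 highest sums (all genes 0.275%). Inhibitors numbered 16 of 19, 2 of 18 and 3 of 13 in that order. Defb42, Defb43, Serpina1f and Spink8 were among those called in all 3.

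Proteins of the sperm surface and of sperm maturation gave 8 of 14 tested genes higher (all genes 2.97%) and none lower, with a median of 2.65. Without the 2 highest sums 1 of 8 rose (all genes 0.275%), with a median of 0.23. Without the 5 HFD libraries 1 of 13 rose (all genes 0.257%), with a median of 2.86. The gene called was Cd52 each time. Cd52, a small glycoprotein of the epididymis and of lymphocytes, was at 87.9 to 1484 TPM in the rich libraries (median 399) and 8.62 to 57.8 TPM in the poor ones (median 16.9). The sets did not overlap, and Cd52 rose by 4.52 ± 0.50 (limma adjusted p = 0.000201). Ceacam10, of the carcinoembryonic antigen family, was at 1.897 to 2.82 TPM in normal libraries 98 and 99, 37.1 to 355 TPM in the other 5 rich libraries and 0 to 5.66 TPM in the poor ones, and rose by 4.87 ± 0.81 (limma adjusted p = 0.00578). Ces5a, a secreted carboxylesterase, followed the same libraries, at 0.204 to 0.261, 77.2 to 619.6 and 0.0261 to 11.2 TPM in that order. It rose by 4.82 ± 0.95 (limma adjusted p = 0.0137), a call that ended without library 26 or 27 (HFD with drug) or 2 (normal with drug) (adjusted p up to 0.0667). Ly6f, of the Ly6 family of membrane-anchored proteins, was at 9.13 to 506 TPM in the rich libraries (median 121) and 0 to 10.1 TPM in the poor ones (median 0.124) and rose by 5.78 ± 0.65, with 6 of 7 rich libraries above every poor one (limma adjusted p = 0.000201).

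Of 6 ribonuclease A genes outside the sum, 3 rose (all genes 2.97%). Rnase12 was at 1.05 to 3246 TPM in the rich libraries (median 1231) and 0 to 37.6 TPM in the poor ones (median 1.22) and rose by 5.89 ± 1.03 (limma adjusted p = 0.00859). Rnase11 was at 0 to 505 TPM in the rich libraries (median 164) and 0 to 7.78 TPM in the poor ones (median 0) and rose by 4.67 ± 0.95 (limma adjusted p = 0.0152), a call that ended without library 26 or 27 (HFD with drug) or 2 (normal with drug) (adjusted p up to 0.0736). Rnase1, the pancreatic-type secreted ribonuclease, was at 1.96 to 16.7 TPM in the rich libraries (median 6.796) and 0 to 1.505 TPM in the poor ones (median 0.459) and rose by 2.21 ± 0.36 (limma adjusted p = 0.00521). Rnase1 separated the sets in all 7 rich libraries although its level was low. Without the 5 HFD libraries Rnase1 and Rnase12 kept their calls among 5 tested (all genes 0.257%). Without the 2 highest sums 0 of 5 rose (all genes 0.275%). Of the lipocalins outside the sum, the 1 tested, Lcn12, rose by 3.31 ± 0.83 (limma adjusted p = 0.0394), and was not called in either of these settings.

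**Figure D3:**
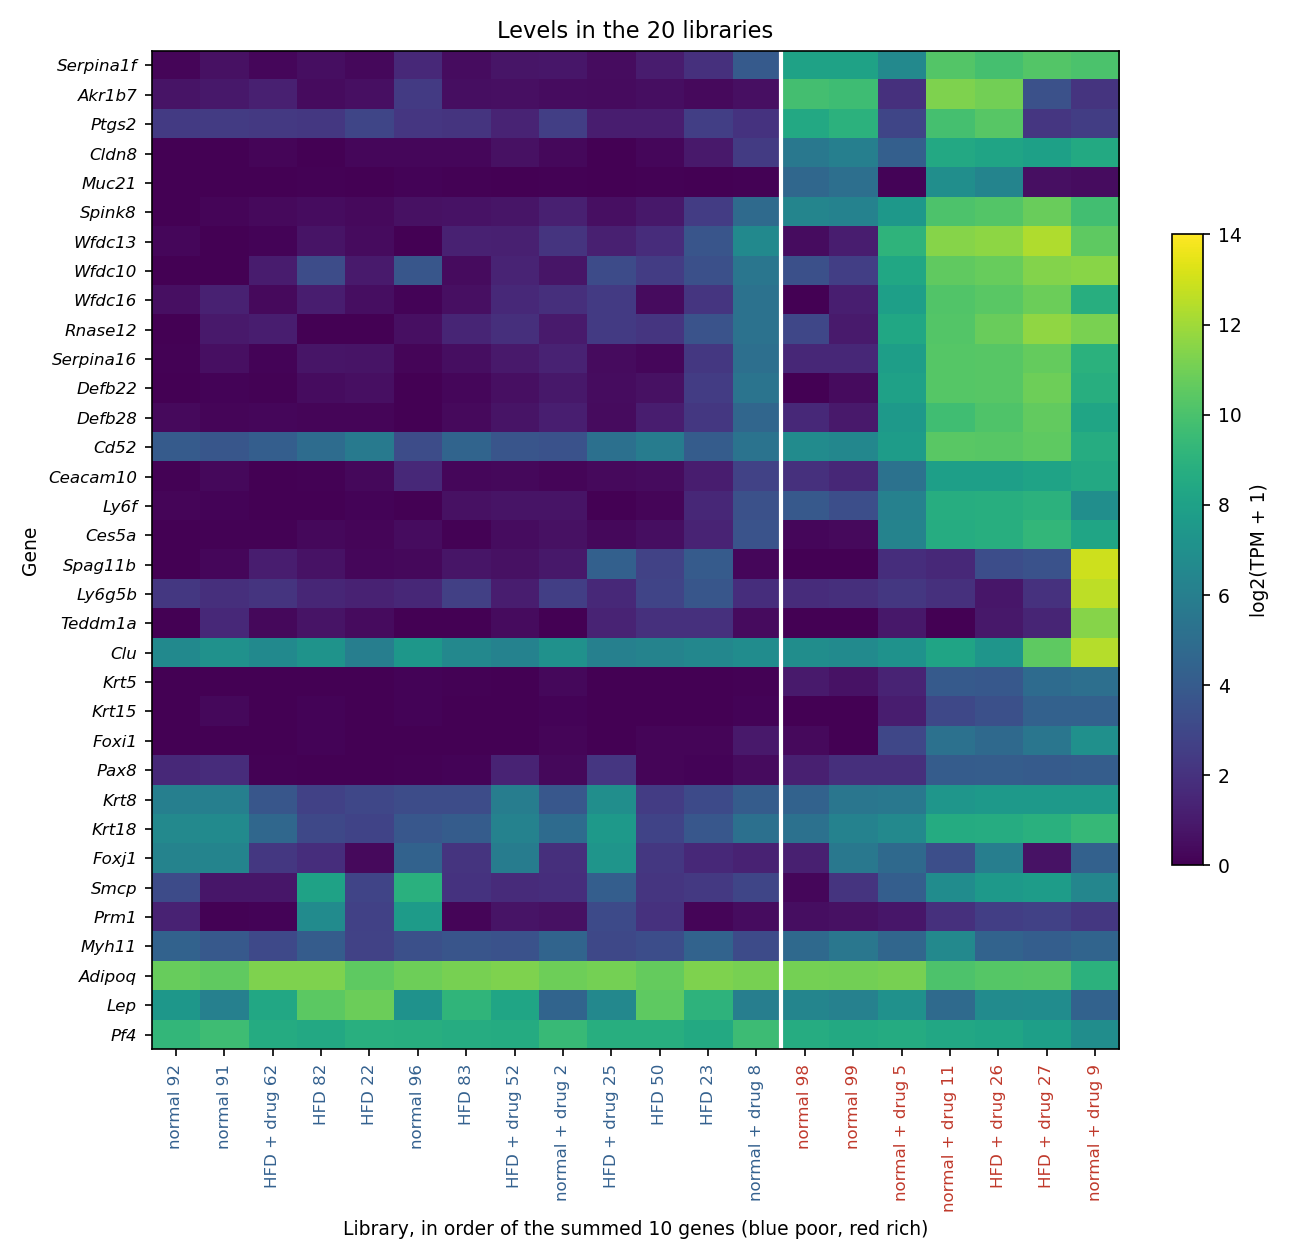
Level of named genes as log2(TPM + 1) (colour) in the 20 libraries, ordered by the sum of the 10 genes, poor libraries (blue labels) left of the white line and rich ones (red labels) right of it. Serpina1f, Cldn8 and Cd52 are above every poor library in all 7 rich libraries, whereas Wfdc13 and Defb22 are low in normal libraries 98 and 99.

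A further set of genes did not follow the sum. Akr1b7, an aldo-keto reductase known as the mouse vas deferens protein, was at 885 and 814 TPM in normal libraries 98 and 99, 2533 TPM in normal with drug library 11 and 2052 TPM in library 26 of HFD with drug. The other 3 rich libraries held 2.77 to 10.3 TPM and the poor ones 0.255 to 4.12 TPM, so these overlapped. The log2 difference of Akr1b7 was 6.50 ± 1.26 (limma adjusted p = 0.0137), a call that ended without library 26 (HFD with drug) (adjusted p = 0.0662). Ptgs2, the inducible prostaglandin synthase, was named after its values were seen, and was at 351, 518, 938 and 1315 TPM in the same 4 libraries and at 1.16 to 6.701 TPM in the other 16. The lens crystallin Crygc and the mucin Muc21, also named after their values were seen, were at 36.8 to 125 and 24.7 to 119.7 TPM in these 4 libraries and at most 0.541 and 0.514 TPM elsewhere. The 4 libraries include the 2 lowest sums of the rich set and not the 2 highest.

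The rich libraries differed in how many genes stood far above the poor ones. Genes at 10 TPM or more and at least 10 times the highest poor library, the 10 summed genes left out, numbered 12 and 14 in normal libraries 98 and 99, 12, 150 and 272 in normal with drug libraries 5, 11 and 9, and 159 and 224 in HFD with drug libraries 26 and 27. They took 0.1698%, 0.189%, 0.0508%, 3.17%, 9.66%, 3.49% and 5.78% of these libraries, in that order. Each poor library, set against the other poor ones by the same rule, held 1 to 24 such genes. In normal with drug library 5, 2 of the 12 were antigen receptor segments of lymphocytes, and without these the genes summed to 262 rather than 507 TPM; the other rich libraries held 0 to 2 such segments and the poor ones 0 to 5. Normal with drug library 11 and HFD with drug library 26 shared 133 of them, 88.7% of those of the former and 83.6% of those of the latter. Normal library 98 shared 11 of its 12 with HFD with drug library 26, which was 6.92% of the genes of the latter, and 0 with normal with drug library 5. These are descriptions of single libraries, with no test.

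Normal with drug library 9 held genes at levels seen in none of the other 19. Spag11b, a defensin-like protein that binds sperm, was at 7709 TPM there and at most 18.2 TPM elsewhere. Ly6g5b, of the Ly6 family, was at 6293 TPM against at most 12.4 TPM, and Teddm1a at 2848 TPM against at most 2.88 TPM. Clu, the secreted chaperone clusterin, was at 5471 TPM in this library, 1466 TPM in library 27 of HFD with drug, and 62.4 to 292 TPM was the range over the remaining 18. These genes were named after their values were seen, and a single library allows no test.

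Some markers of the cells of the duct were higher, with 4 rich libraries well above the rest. Of 21 tested genes of general epithelium 10 rose and none fell (median 2.19), and of 4 tested basal cell genes 3 rose (median 2.40). Over all genes tested 2.97% rose. The summed level of the general epithelium genes was 2599 to 4215 TPM in normal with drug libraries 9 and 11 and HFD with drug libraries 26 and 27. It was 238 to 531 TPM in the other 3 rich libraries, inside the 36.6 to 712 TPM of the poor ones. The basal cell sum was 62.9 to 125, 21.6 to 24.2 and 8.905 to 29.3 TPM in the same order, so those 3 libraries lay inside the poor range for both. Genes of general epithelium that rose numbered 19 of 21 without normal libraries 98 and 99 (all genes 11.2%). They numbered 2 of 21 without the 5 HFD libraries (all genes 0.257%) and 3 of 21 without the 2 highest sums (all genes 0.275%). Cldn8 was called in each setting. Basal cell genes numbered 3 of 4, 0 of 4 and 0 of 2 in the same order. In bulk RNA, more cells of a type and more RNA per cell cannot be told apart. Cldn8, a tight junction protein, was at 47.6 and 65.4 TPM in normal libraries 98 and 99, 17.9, 352 and 364 TPM in normal with drug libraries 5, 11 and 9, and 283 and 249.9 TPM in HFD with drug libraries 26 and 27, against 0 to 4.34 TPM in the poor libraries (median 0.193). The sets did not overlap, and Cldn8 rose by 6.42 ± 0.55 (limma adjusted p = 1.42e-05). Cldn4, another claudin, rose by 3.99 ± 0.70 (limma adjusted p = 0.00859) and was above every poor library in 7 of 7 rich ones.

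The basal cell keratin Krt5 was at 0.606 to 34.2 TPM in the rich libraries (median 13.6) and 0 to 0.254 TPM in the poor ones (median 0), with no overlap. It rose by 2.83 ± 0.51 (limma adjusted p = 0.00981), and the call ended without library 26 (HFD with drug) (adjusted p = 0.0502). Krt5 was under 1 TPM in every poor library, so it passed the filter through rich libraries alone. Its p-value and lack of overlap thus describe the gene and support nothing. Krt14 and Krt15, also keratins of basal layers, rose by 2.66 ± 0.61 and 2.15 ± 0.52 (limma adjusted p = 0.0259 and 0.0326). The call of Krt14 ended without library 25, 26, 27, 52 or 62 (HFD with drug) or 2, 8 or 11 (normal with drug) (adjusted p up to 0.114), and that of Krt15 without library 25, 52 or 62 (HFD with drug) or 2 or 8 (normal with drug) (adjusted p up to 0.103). Krt15, at most 0.215 TPM in the poor libraries, fell under the filter and had no value on leaving out library 26 or 27 (HFD with drug) or 5, 9 or 11 (normal with drug).

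Of 6 tested genes of clear and narrow cells, 2 rose (all genes 2.97%). The summed level of the 8 listed overlapped between the sets. It was 4.27 to 181 TPM in the rich libraries (median 47.4) and 1.58 to 95.5 TPM in the poor ones (median 6.01). Foxi1, a transcription factor of proton-secreting cells, was at 0.267 and 0 TPM in normal libraries 98 and 99, 6.86 to 131 TPM in the other 5 rich libraries and 0 to 0.909 TPM in the poor ones. It rose by 3.28 ± 0.66, and Atp6v1g3, a subunit of the proton pump, by 1.86 ± 0.41 (limma adjusted p = 0.0146 and 0.0215). Foxi1 was under 1 TPM in every poor library, so it passed the filter through rich libraries alone, and its p-value supports nothing. Among 8 tested genes of ion and water transport, 2 rose (all genes 2.97%). Aqp9, a water and solute channel, and Clcn5, a chloride-proton exchanger, rose by 2.02 ± 0.44 and 1.31 ± 0.34 (limma adjusted p = 0.0195 and 0.048). Among 7 tested epididymal regulators, 2 rose (all genes 2.97%). Pax8 and Emx2, transcription factors of the urogenital tract, rose by 2.09 ± 0.46 and 2.16 ± 0.52 (limma adjusted p = 0.0198 and 0.0321). Of 42 reproductive homeobox genes, none passed the filter on low values. Clear and narrow cell genes that rose numbered 4 of 6 without normal libraries 98 and 99, where 11.2% of all genes rose. They numbered 0 of 6 without the 5 HFD libraries (all genes 0.257%). Without the 2 highest sums only 2 of the 6 still passed the filter, and 0 of these rose (all genes 0.275%). In the last 2 settings none of the transport genes and regulators was called.

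The keratin pair of simple epithelia did not pass the test. Krt18 was at 35.8 to 655 TPM in the rich libraries (median 394) and 6.02 to 192 TPM in the poor ones (median 24.8), and 4 of 7 rich libraries lay above every poor one. Its log2 difference was 1.93 ± 0.60 (limma adjusted p = 0.0917), and that of its partner Krt8 was 1.58 ± 0.56 (limma adjusted p = 0.136). Without normal libraries 98 and 99, Krt18 rose by 2.88 and Krt8 by 2.44 (limma adjusted p = 0.00824 and 0.0149).

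The poor libraries with the most Krt18 were also those with the most Foxj1, the regulator of motile cilia. Normal libraries 91 and 92 and HFD with drug libraries 25 and 52 held Krt18 at 73.8 to 192 TPM and Foxj1 at 58.5 to 155 TPM, against at most 35.3 and 20.2 TPM in the other 9 poor libraries. In the rich set Foxj1 was at 63.7, 47.6 and 26.9 TPM in libraries 26 (HFD with drug), 99 (normal) and 5 (normal with drug), and the other 4 held 0.637 to 19.6 TPM. None of 7 tested ciliated cell genes passed (all genes 2.97% higher and 0.255% lower), with a median log2 difference of -0.38. The summed level of the 11 listed was 6.26 to 99.1 TPM in the rich and 5.83 to 259.6 TPM in the poor libraries. Ciliated cell transcripts were thus found in both sets, and their part in the keratin levels was not tested.

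**Figure D4:**
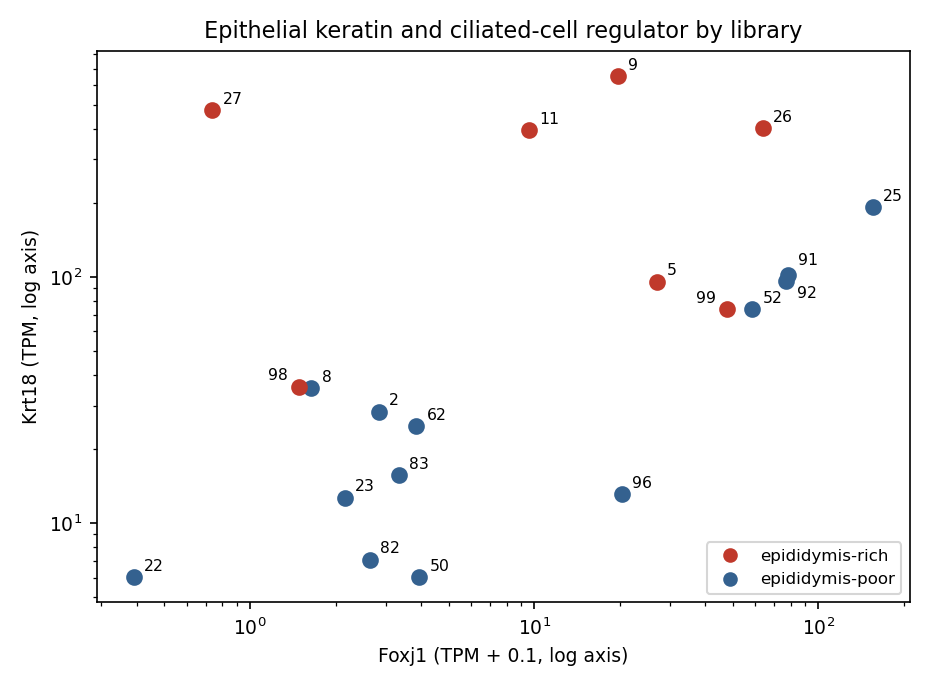
Krt18 against Foxj1 (TPM, log axes, with 0.1 added to Foxj1) in the 20 libraries, poor in blue and rich in red. Poor libraries with 73.8 to 192 TPM of Krt18 hold 58.5 to 155 TPM of Foxj1, while rich HFD with drug library 27 has 476 TPM of Krt18 and 0.637 TPM of Foxj1.

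Smooth muscle genes gave 3 of 10 tested higher (all genes 2.97%) and none lower, with a median of 0.74. Actg2, the actin of visceral smooth muscle, was at 6.75 to 268 TPM in the rich libraries (median 27.99) and 0.525 to 17.5 TPM in the poor ones (median 2.15) and rose by 2.67 ± 0.68 (limma adjusted p = 0.0428). Cnn1, calponin, rose by 2.26 ± 0.58 and Myh11, smooth muscle myosin, by 1.26 ± 0.33 (limma adjusted p = 0.0447 and 0.0468). The 3 calls all ended on leaving out any one of libraries 83 (HFD), 25, 26, 27, 52 and 62 (HFD with drug), 91 and 99 (normal) and 2, 8, 9 and 11 (normal with drug). That of Actg2 also ended without library 50 (HFD), that of Cnn1 without library 96 (normal) and that of Myh11 without library 50 or 82 (HFD) or 96 (normal) (adjusted p up to 0.161). Acta2, the actin of vascular smooth muscle, was at 168 to 393 TPM in the rich libraries (median 252) and 78.1 to 303 TPM in the poor ones (median 155) and did not pass (log2 difference 0.66 ± 0.24, limma adjusted p = 0.15). Without normal libraries 98 and 99, 1 of the 10 rose, Actg2 (limma adjusted p = 0.0413), where 11.2% of all genes rose. None of the 10 was called without the 5 HFD libraries (all genes 0.257% higher) or without the 2 highest sums (all genes 0.275% higher). Myh11 was highest in normal with drug library 11, at 96.8 TPM, and normal library 99, at 46.6 TPM.

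None of 13 tested genes of spermatids and sperm passed (all genes 2.97% higher and 0.255% lower), with a median of 0.36. The median was 1.61 without normal libraries 98 and 99 (all genes 11.2% higher) and -0.07 without the 2 highest sums (all genes 0.275% higher), again with none called. Prm1, a protamine of spermatid chromatin, was at 0.421 to 5.42 TPM in the rich libraries, and at 108 and 205 TPM in HFD library 82 and normal library 96, both poor. Smcp, a protein of the sperm mitochondrial sheath, was at 266 and 471 TPM in these 2 and at 86.3 to 209 TPM in normal with drug libraries 9 and 11 and HFD with drug libraries 26 and 27. The ratio of Smcp to Prm1 was 2.46 and 2.296 in the 2 poor libraries and 22.5 to 38.6 in the 4 rich ones. The ratio of Odf1, of the sperm tail, to Akap4, of its fibrous sheath, was 1.26 and 1.204 against 9.18 to 25.6. Germ cell transcripts thus came in unlike proportions in these 2 poor and 4 rich libraries, as a description of 6 libraries with no test. The contrast did not extend to the whole sets. Smcp and Prm1 were at 4.04 and 0.145 TPM in poor HFD library 23, and at 0.195 and 0.421 TPM in rich normal library 98. Without HFD library 82 and normal library 96, left out after seeing the data, the median of the 13 was 0.99 and Odf1 rose (limma adjusted p = 0.044), while 494 genes of the whole table (2.88%) were higher and 65 (0.379%) lower.

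Among genes of neighbouring organs, 1 of 3 tested Leydig cell genes rose (all genes 2.97%). This was the steroid enzyme Cyp17a1, at 0.336 to 158 TPM in the rich libraries (median 41.3) and 0 to 21.3 TPM in the poor ones (median 0.383). Its log2 difference was 3.54 ± 0.94 (limma adjusted p = 0.0488). Hsd3b6, a steroid enzyme of Leydig cells, was listed at 0 in all 7 rich libraries and at 14.4 and 2.87 TPM in HFD library 82 and normal library 96. Insl3, the Leydig cell hormone, was at 2.33 to 8.09 TPM in the rich libraries (median 6.204) and 1.72 to 13.5 TPM in the poor ones (median 9.07) and did not pass (limma adjusted p = 0.802). Of 5 tested genes of seminal vesicle, prostate and vas deferens, 2 rose (all genes 2.97%), Akr1b7 and the Kazal-type inhibitor Spinkl (2.60 ± 0.53, limma adjusted p = 0.0152). None of 4 tested Sertoli cell genes passed (all genes 2.97% higher and 0.255% lower), with a median of 0.17. None of these calls stood without the 5 HFD libraries (all genes 0.257% higher), and Akr1b7 alone stood without the 2 highest sums (all genes 0.275% higher).

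Of 20 tested fat cell genes none was called, with a median log2 difference of -0.48. With 0.255% of all genes called lower, such a count says nothing of fat cell genes in particular. Their sum took 2.86% to 12.4% of the rich and 6.82% to 13.3% of the poor libraries. It was 2.86% and 6.23% in normal with drug libraries 9 and 11, 6.44% and 6.81% in HFD with drug libraries 26 and 27 and 10.3% to 12.4% in the other 3 rich libraries. Adipoq was at 500.2 to 2244 TPM in the rich libraries (median 1331) and 1486 to 2522 TPM in the poor ones (median 2177) and did not pass (log2 difference -0.51 ± 0.26, limma adjusted p = 0.316), nor did leptin (Lep, adjusted p = 0.646) or the protease adipsin (Cfd, adjusted p = 0.618). Without normal libraries 98 and 99, where 2.1% of all genes fell, 6 of the 20 fell, by 0.90 to 1.07 on the log2 scale, namely the regulator Pparg, the lipid carriers Cd36 and Fabp4, the lipases Lpl and Pnpla2 and the droplet protein Cidec. None of the 20 was called without the 5 HFD libraries, without the 2 highest sums or without HFD library 82 and normal library 96. TPM values share a fixed total, so that more of other transcripts leaves less room for these, and the part of this in the lower values was not tested. None of 16 macrophage genes (median -0.41) and none of 11 mesothelial genes (median -0.20) passed.

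The 8 largest decreases by the naming rule were small, and the sets overlapped for each. Nog, the bone morphogenetic protein antagonist noggin, was at 13.4 to 55.7 TPM in the rich libraries (median 19.6) and 14.1 to 139 TPM in the poor ones (median 28.5) and fell by 1.29 ± 0.30 on the log2 scale (limma adjusted p = 0.0281). Nnmt, a nicotinamide methyltransferase, was at 20.6 to 64.9 TPM in the rich libraries (median 41.1) and 35.6 to 206 TPM in the poor ones (median 65.7) and fell by 1.18 ± 0.28 (limma adjusted p = 0.0303). Vegfa, a growth factor of vessels, fell by 1.14 ± 0.28 and Hilpda, a lipid droplet protein induced by low oxygen, by 0.996 ± 0.26 (limma adjusted p = 0.0383 and 0.0428). Mrap, the melanocortin receptor accessory protein, fell by 0.94 ± 0.23 and Pf4, a chemokine of platelets and macrophages, by 0.93 ± 0.23 (limma adjusted p = 0.0362 and 0.0353). Rtl8b, a gene derived from a retrotransposon, fell by 0.78 ± 0.17 and Ybx3, an RNA-binding protein, by 0.75 ± 0.19 (limma adjusted p = 0.0197 and 0.0394). Normal with drug library 8, just under the threshold of the sum, was the highest of the 20 libraries for Nog, Nnmt, Vegfa, Hilpda, Mrap and Rtl8b. All 8 calls ended on leaving out library 26 (HFD with drug) or 2, 8 or 11 (normal with drug), and each ended for 5 to 12 single libraries (adjusted p up to 0.144). The others among these were libraries 22, 23 and 83 (HFD), 25, 27, 52 and 62 (HFD with drug), 91 and 96 (normal) and 9 (normal with drug).

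**Figure D5:**
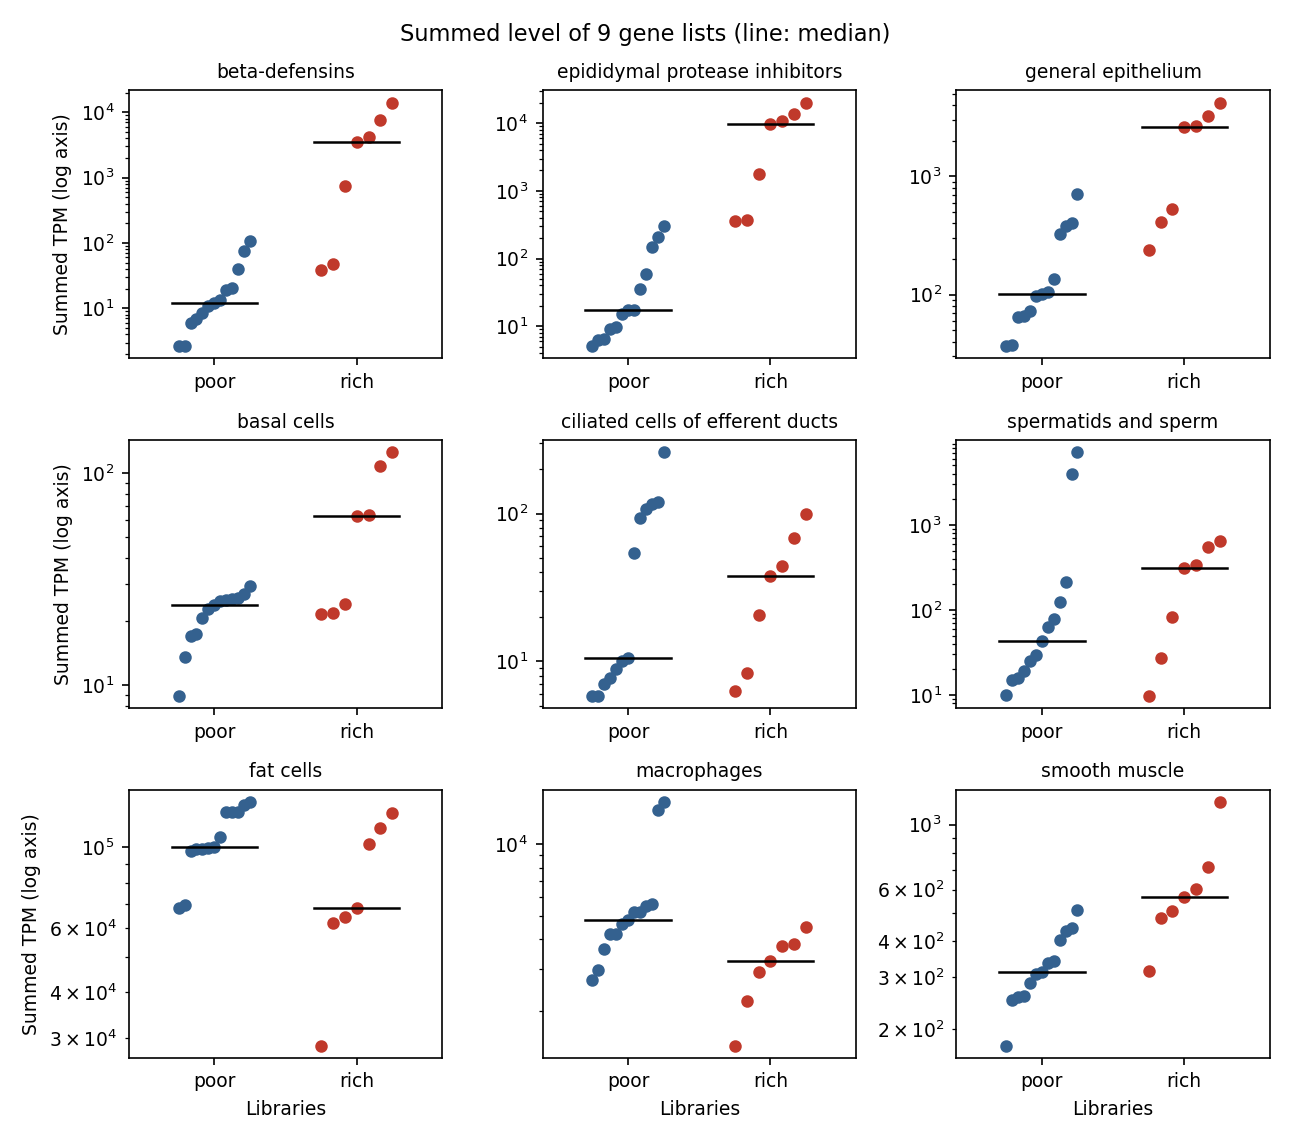
Summed TPM (log axis) of gene lists in the poor (blue) and rich (red) libraries, one point per library in order of its value, with a line at the median and the 10 summed genes left out. Beta-defensins reach 13991 TPM in the rich and 108 TPM in the poor libraries, and the ciliated cell and sperm lists overlap between the sets.

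The study asks how diet and beta-carotene act on fat, and the split was added to those comparisons as a term. Between HFD with drug and HFD, 2595 genes (14.7%) were called with the term, 237 higher and 2358 lower, and 3388 (19.2%) without it, 464 higher and 2924 lower. The same 2390 genes were called both ways. The direction split depended on the scaling: with equal library medians 185 were higher and 300 lower, with quantile normalization 346 and 597, and the median of all genes moved from -0.19 to 0.04 and -0.02. Between HFD and normal, 1196 genes (6.78%) were called with the term and 961 (5.45%) without it, 817 of them both ways. Between normal with drug and normal, limma called 0 genes either way, and 991 and 1102 had an unadjusted p under 0.05 with and without the term. The first count was 451 without HFD with drug library 25, 880 without HFD library 22 and 928 without HFD library 50. The count for HFD against normal was 486 without HFD library 22, 544 without normal library 91, 569 without HFD library 50 and 744 without normal library 99.

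Keratins and 3 genes of redox and respiration kept their calls in the drug comparison with the term. Keeping a call was common, since 2390 of the 3388 genes called without the term were also called with it. Lep, Gpnmb and Col1a1, lower with the drug, and Sephs2, higher with it, kept theirs too (limma adjusted p = 0.0133, 0.0103, 0.018 and 0.0113 with the term). Krt18 was at 400.3, 476, 24.8, 73.8 and 192 TPM in HFD with drug libraries 26, 27, 62, 52 and 25, and 7.104, 6.02, 15.7, 6.04 and 12.7 TPM in HFD libraries 82, 22, 83, 50 and 23. It was higher in HFD with drug than in HFD by 3.14 with the term and 3.92 without it (limma adjusted p = 0.0165 and 0.00803), and Krt8 by 2.79 with the term and 3.42 without it (limma adjusted p = 0.0196 and 0.00881). Gpx3, the secreted glutathione peroxidase, was higher by 1.62 with the term and 1.95 without it (limma adjusted p = 0.0117 and 0.00511). Gsta4, a glutathione transferase, was higher by 1.28 with the term and 1.38 without it (limma adjusted p = 0.0135 and 0.00502), and Cox4i1, a subunit of cytochrome oxidase, by 0.64 with the term and 0.73 without it (limma adjusted p = 0.0065 and 0.00254). Without HFD with drug library 25, poor and with 155 TPM of Foxj1, the calls of Krt18, Krt8 and Gsta4 ended (adjusted p = 0.0702, 0.0828 and 0.0578), and that of Krt8 ended also without HFD library 50 (adjusted p = 0.0523). With all rich libraries left out the differences were 2.87 for Krt18, 2.62 for Krt8, 1.28 for Gpx3, 1.45 for Gsta4 and 0.70 for Cox4i1, and all 5 stayed under the threshold of 0.05. In the split itself Gpx3 was at 1754 to 5077 TPM in the rich libraries (median 2174) and 319.6 to 2214 TPM in the poor ones (median 1286) and did not pass (log2 difference 0.82 ± 0.27, limma adjusted p = 0.11). Gpx3 was called higher in 5 of 18 alternatives, single libraries left out not counted. Without normal libraries 98 and 99, where 11.2% of all genes were higher, it rose by 1.15 (limma adjusted p = 0.0271).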

How the data were processed

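RNA extracted from adipose tissue was sequenced in 40 libraries, and the 20 labelled subcutaneous were compared. The deposited table holds TPM made by the authors, a unit read from the values, since every library had the same total. The submitters' processing notes list STAR 2.7.8, featureCounts 2.0.3, FastQC 0.11.9 and DESeq2 1.32.0, on build GRCm39; annotation and filters are not given in the sources used here. Some genes are not reported here. Genes at 1 TPM or more in at least 5 of 20 libraries (17641 of 55270) were tested on log2(TPM + 1) with limma 3.58.1 in R 4.3.3 (trended, robust empirical Bayes, treatment as a block, Benjamini-Hochberg, threshold 0.05). Fold changes on this scale understate the change of low genes. TPM keeps no read depth, so no count test or interval was used. No 2 libraries held identical values. The method was tested on simulated data in which each changed gene moved equally in all rich libraries, which was not so in these data. Named were the 12 largest increases and 8 largest decreases among called genes with a mean of at least 10 TPM in the higher set, up to 3 called members of each list with at least 3, and 17 fixed genes; list members and genes said to be chosen afterwards come beside them. The libraries and all 32 lists were chosen with earlier results of these data known. Alternatives covered pseudocount, filter, scaling, weights, the threshold of the sum and left-out libraries.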

Additional observations from a re-analysis of the deposited data

Results flagged for a closer look

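Normal with drug library 9 was low for Pf4, at 115 TPM, against 239 to 410.3 TPM in the other 6 rich libraries; the gap to the next library was large for a group of 7. Chance flags about 1 in 20 groups, and of 49 named genes 1 stood out in this way.

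The difference between rich and poor libraries itself differed between the high-fat and the normal diets for 8 genes by an interaction term in limma, with 2923 at an unadjusted p under 0.05. Among them were Stc1, Nrgn, Snora47, BC024139, Gm43482, Gm47232 and Gm29156. Stc1, a secreted glycoprotein hormone named here after its values were seen, was at 28.9 to 38.5 TPM in the rich and 2.78 to 9.59 TPM in the poor libraries on high-fat diets, and at 7.69 to 28.8 against 10.8 to 30.2 TPM on normal diets. Its interaction was 3.08 ± 0.47 on the log2 scale (limma adjusted p = 0.0202). With 1 library left out the count changed by over 1.5 times in 8 cases, 1 without library 27 (HFD with drug), 4 without library 25 (HFD with drug), 4 without library 98 (normal), 34 without library 52 (HFD with drug), 80 without library 8 (normal with drug), 134 without library 2 (normal with drug), 302 without library 9 (normal with drug) and 469 without library 11 (normal with drug). The rich side of the high-fat diets holds 2 libraries, both with drug, so diet and drug cannot be told apart there.

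Outside the comparison, 1 library labelled visceral, HFD library 50, held 233 TPM of the 10 genes, against at most 8.55 TPM in the other 19 labelled visceral. Gpx5 led its sum at 38.1%, as in the library labelled subcutaneous that bears the same title number, at 41.6% of 59.4 TPM.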

How the results depend on the processing

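Genes called higher in the rich libraries (524) numbered 287 with no filter, 232 at 10 TPM, 1030 with array weights, 2, 2169 and 2897 with the threshold at 100, 500 and 1000 TPM, 1294 with the log2 of the sum, 804 with no treatment block, 47 without the 2 highest sums, 1953 without normal libraries 98 and 99, 43 without the 5 HFD libraries and 53 to 926 with single libraries left out. Genes called lower (45) numbered 5, 253, 0, 480, 1087, 686, 127, 1, 366, 2 and 0 to 103 under the same alternatives except 10 TPM, and 133 and 123 under quantile normalization and equal medians. Leaving out the 5 HFD libraries changed no rich minus poor difference of a gene tested both times, since these libraries add only to the spread. The general epithelium median, for example, was 2.19 both ways. The cause of the other moves was not tested. HFD against normal gave 732 calls with no filter, 585 without normal libraries 98 and 99, 692 without HFD library 82 and normal library 96 and 486 to 1577 over single libraries. HFD with drug against HFD gave 1434 with no filter, 943 and 485 with quantile normalization and equal medians and 451 to 3520 over single libraries. Normal with drug against normal gave 1, 1 and 1 with pseudocount 0.5, quantile normalization and equal medians, 3 at 500 TPM and 0 to 1 over single libraries. The interaction with diet gave 20 and 60 with pseudocounts 0.5 and 5, 190 and 61 with no filter and 10 TPM, 24, 21 and 73 with quantile normalization, equal medians and mitochondrial genes removed, 2131 with array weights, 1, 0 and 0 at 100, 500 and 1000 TPM, 2 with the log2 of the sum, 1, 0 and 4 without the 2 highest sums, normal libraries 98 and 99 or the 5 HFD libraries, and 1 to 469 over single libraries.

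Changes of sign were found in 8 uncalled genes (log2 differences): Prm1 from -0.01 to 0.16 (pseudocount 0.5), 0.0603 (mitochondrial genes removed), 0.0255 (epididymis genes removed), 0.58 (array weights), 1.21 (split at 500 TPM), 1.37 (split at 1000 TPM), 0.0331 (log2 of the sum), 1.21 (without normal 98 and 99), 0.82 (without HFD 82 and normal 96), and -0.31 to 0.82 over single libraries left out; Col1a1 from 0.09 to -0.0214 (equal library medians), -0.03497 (array weights), -0.0367 (split at 100 TPM), -0.18 (split at 1000 TPM), -0.0153 (log2 of the sum), -0.38 (no block), -0.00136 (without HFD 82 and normal 96), and -0.0544 to 0.25 over single libraries left out; Gpnmb from 0.04 to -0.0301 (quantile normalization), -0.0735 (equal library medians), -0.25 (split at 100 TPM), -0.24 (split at 500 TPM), -1.07 (no block), -0.24 (without normal 98 and 99), -0.00268 (without HFD 82 and normal 96), and -0.11 to 0.28 over single libraries left out; Upk3b from -0.04 to 0.00571 (epididymis genes removed), 0.0662 (split at 100 TPM), 0.00503 (split at 500 TPM), 0.34 (no block), 0.0859 (without the 2 highest sums), 0.00503 (without normal 98 and 99), and -0.43 to 0.21 over single libraries left out; Cfd from -0.50 to 0.0454 (split at 100 TPM), 0.29 (no block); Insl3 from -0.18 to 0.00682 (split at 500 TPM), 0.00682 (without normal 98 and 99); Sephs2 from -0.36 to 0.20 (no block); Wt1 from -0.20 to 0.0123 (no block). Over all named genes and alternatives, 1683 values kept their direction and side of the threshold, 254 lost the call, 21 gained it and 55 changed sign. The epididymis genes have no value where those genes were removed. Leaving out libraries 98 and 99, 82 and 96, or the HFD libraries was chosen after seeing the data. No paired analysis was possible because the libraries compared carry 1 depot label and their treatments share no title number. What depth limits could not be judged, since TPM keeps none.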

Other observations

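Genes of general cell function were called about as often as all genes, of which 2.97% were higher and 0.255% lower. Of 23 tested nuclear genes of oxidative phosphorylation 1 rose, Ndufa1, a subunit of complex I, by 0.45 ± 0.12 on the log2 scale (limma adjusted p = 0.0446), and the median was -0.15. Of 23 antioxidant and glutathione genes 1 rose, Gstm2, a glutathione transferase, by 1.16 ± 0.23 (limma adjusted p = 0.0143), at 291 to 1007 TPM in the rich libraries (median 796) and 161 to 383 TPM in the poor ones (median 277). None of 25 genes of the secretory pathway passed, with a median of 0.29. Without normal libraries 98 and 99, where 11.2% of all genes were higher and 2.1% lower, 1 gene of oxidative phosphorylation rose and 9 fell, 6 antioxidant genes rose and 3 fell, and 6 genes of the secretory pathway rose. None of these 3 lists had a call without the 5 HFD libraries or without the 2 highest sums. None of the tested genes of progenitors, lipid-associated macrophages, B cells, T cells, endothelium, collagens, selenoprotein supply, mitochondrially encoded genes or the Spag11 genes passed in the comparison of all 20 libraries.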
